A study of Arabidopsis thaliana with 20 samples.

Results

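HRA1 (HYPOXIA RESPONSE ATTENUATOR1, AT3G10040) is a gene on chromosome 3 of Arabidopsis thaliana that encodes a transcription factor of the trihelix family. It was taken from the array by its locus code in the platform's probe-to-gene annotation, which gives it 1 probe set of its own among 13355 genes that a single-gene probe set names. It is known as part of the low-oxygen pathway of plants. In that pathway, ethylene response factors of group VII, such as RAP2.12, are destroyed through the N-degron route while oxygen is present, and they switch on hypoxia genes when oxygen runs short. HRA1 is one of the genes that RAP2.12 activates, and its protein binds RAP2.12 and holds its activity back, so that the factor and its antagonist form a feedback loop. Trihelix factors bind GT elements in DNA and are otherwise known for light-regulated transcription, organ shape and seed development.

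The values come from 20 Affymetrix arrays of root-tip RNA, 2 arrays in each of 10 groups. All seedlings were Col-0 plants 7 days old that carried a His6FLAG-tagged ribosomal protein, RPL18B, so the tag is present in the air controls too. Each line drove the tagged protein from 1 of 4 promoters. Total RNA came from p35S:His6FLAG-RPL18B seedlings and was set aside from the same lysates as the p35S polysomes. Polysomal RNA, which is messenger RNA bound to ribosomes and was pulled down through the tag, came from p35S:His6FLAG-RPL18B, pSCR:His6FLAG-RPL18B, pSHR:His6FLAG-RPL18B and pWOL:His6FLAG-RPL18B. The p35S promoter is broadly active, and the labels place pSCR in the endodermis and pSHR and pWOL in the vascular tissue. Each of these 5 RNA populations was sampled after 2 h in argon (hypoxia) or 2 h in air (control), from the terminal 1 cm of the root. Levels are the deposited log2 expression values, so a difference of 1 is a doubling. Whether the replicate arrays came from separate plates of seedlings is not said in the labels. The p-values therefore speak only for the spread among these arrays, and some of it may be technical.

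Median log2 values of the arrays were 6.41 to 6.55, and replicate arrays correlated at r = 0.965 to 0.984 across probe sets. For the 25S ribosomal RNA control, 19 arrays read 12.69 to 14.34, and replicate 2 of pSCR in hypoxia read 10.18. Only a few defining markers of the tagged tissues had a named probe set. In pSCR polysomes in air, both measured endodermal markers, GSO1 and JKD, were higher than in p35S polysomes, by 2.32 ± 0.33 and 1.91 ± 0.47 log2 units (SE; limma adjusted p = 0.00117 and 0.0216). Set against p35S polysomes, the 3 measured stele markers did not bear out the vascular label. In pWOL polysomes in air, LHW and PHV were lower than in p35S by 1.26 ± 0.30 and 0.78 ± 0.24 (the differences are -1.26 and -0.78; adjusted p = 0.0162 and 0.0492), and OPS differed by -0.28. In pSHR none of the 3 passed. Of the 2 endodermal markers, JKD was higher in pWOL than in p35S (2.59), and GSO1 did not pass (0.42). Of the 2 measured cortex markers, AT1G09750 was higher (3.39), and AT1G62500 did not pass (-0.06). Set against pSCR in air, GSO1 was lower in pWOL (-1.90, limma adjusted p = 0.00652) and in pSHR (-1.45, adjusted p = 0.0307). JKD did not pass in either (0.68 in pWOL and -0.36 in pSHR). The lines are therefore called by their promoters.

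HRA1 was low in every air array and high in every hypoxia array. In air its log2 level ran from 5.26 to 6.11 with a median of 5.64 (10 arrays), which is 0.43 to 1.22 units below the median of the respective array. In hypoxia it ran from 10.35 to 12.84 with a median of 11.79 (10 arrays). The lowest hypoxia array thus stood 4.24 log2 units above the highest air array. In bulk samples such as these, more cells that contain a transcript and more transcript per cell cannot be told apart.

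In total RNA, HRA1 read 5.26 and 5.56 in air and 10.35 and 10.99 in hypoxia. In p35S polysomes it read 5.69 and 5.60 in air and 11.73 and 11.41 in hypoxia. In pSCR polysomes the readings were 5.43 and 5.89 in air and 12.13 and 11.68 in hypoxia. The air readings of these 3 populations lay close together, while the hypoxia readings of total RNA lay below those of both polysomal lines. In pSHR polysomes HRA1 read 5.75 and 6.11 in air and 11.84 and 12.76 in hypoxia, the widest gap between the arrays of any group. In pWOL polysomes it read 5.94 and 5.53 in air and 12.84 and 12.53 in hypoxia. The highest single reading of all 20 arrays was thus a pWOL hypoxia array and the lowest a total RNA air array.

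**Figure D1:**
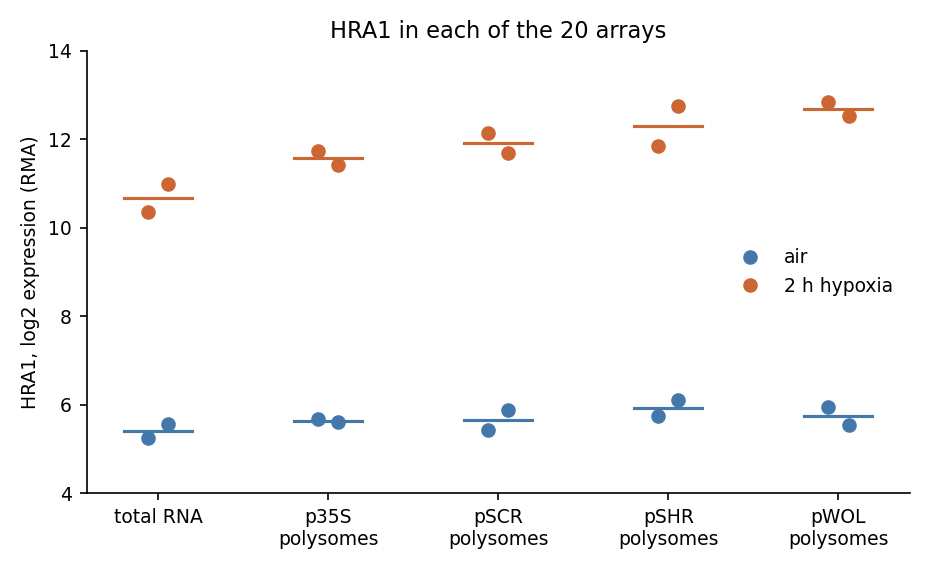
Log2 expression of HRA1 (y axis) in the 20 arrays, by RNA population (x axis). Points are arrays, 2 per group, and bars are group means. The 10 air arrays sit between 5.26 and 6.11 and the 10 hypoxia arrays between 10.35 and 12.84, with the total RNA arrays lowest and the pWOL arrays among the highest in hypoxia.

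How strongly hypoxia raised HRA1 in each RNA population was tested with limma on all 22746 non-control probe sets. In total RNA HRA1 rose by 5.26 ± 0.31 log2 units (SE, 2 against 2 arrays), which is 38.3-fold with a 95% interval of 24.0 to 61.1 (adjusted p = 4.46e-07). In p35S polysomes it rose by 5.93 ± 0.31, or 60.9-fold (38.2 to 97.1; adjusted p = 1.45e-07). In pSCR polysomes it rose by 6.25 ± 0.31, or 76.0-fold (47.7 to 121; adjusted p = 8.69e-08). The intervals of neighbouring estimates overlap, and the one of total RNA meets that of pSCR only between 47.7 and 61.1-fold. In pSHR polysomes it rose by 6.37 ± 0.31, or 82.6-fold (51.8 to 132; adjusted p = 9.21e-08). In pWOL polysomes it rose by 6.94 ± 0.31, or 123-fold (77.3 to 196; adjusted p = 4.99e-08). HRA1 passed the test in 5 of 5 populations. Of all probe sets 2.04% rose in total RNA, 2.8% in p35S, 3.45% in pSCR, 2.68% in pSHR and 4.18% in pWOL.

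Over the 4 polysomal lines together, where 9.69% of all probe sets rose, HRA1's mean difference was 82.8-fold with an interval of 65.6 to 105 (8 against 8 arrays). Of the 2 pSCR hypoxia arrays, the one with the low 25S reading had the lower HRA1 value (11.68 against 12.13). HRA1's rise remained called in all 5 populations without it. An exact permutation test of this mean, with treatment exchanged within each line, gave a two-sided p = 0.00154, the smallest that its 1296 arrangements can give. RMA values flatten near the bottom of the scale. HRA1 lay below the array median in air, and whether these folds understate the change was not tested.

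HRA1's place among all probe sets also differed by population. Ordered by the log2 difference, it came at place 1 of 22746 in pWOL polysomes. It came at place 5 in pSCR and in pSHR polysomes, and at place 13 in p35S polysomes and in total RNA. Among the 13513 single-gene probe sets it came at place 1 in pWOL, 3 in pSHR, 4 in pSCR, 6 in p35S and 4 in total RNA. These places describe the order of the estimates and carry no test.

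Whether the level of HRA1 differs between the RNA populations was asked separately in air and in hypoxia. In air the group means ran from 5.41 ± 0.21 in total RNA through 5.64 ± 0.06 in p35S, 5.66 ± 0.33 in pSCR and 5.74 ± 0.29 in pWOL to 5.93 ± 0.25 in pSHR (SD, n = 2 each). The joint limma F test of the 5 populations did not pass (adjusted p = 0.750), and an exact permutation test over the 10 air arrays gave p = 0.438. None of the 10 pairs of populations passed in air by limma, and 0 had an unadjusted p below 0.05. Of all probe sets, the pairs with total RNA called 6.32% (p35S), 8.16% (pSCR), 3.68% (pSHR) and 12.3% (pWOL). The pairs with p35S called 9.94% (pSCR), 2.5% (pSHR) and 12.5% (pWOL), those with pSCR called 3.17% (pSHR) and 8.96% (pWOL), and pWOL against pSHR called 1.97%. The widest pair, pSHR minus total RNA, differed by 0.52 with a 95% interval of -0.15 to 1.20. An HRA1 level in pSHR up to 2.29 times that of total RNA lies within this interval. The air readings stood at percentiles 30.5 to 44.0 of their arrays, and whether differences are flattened at this level was not tested. Of all probe sets 22.6% passed the same joint test in air.

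In hypoxia the order of the means was total RNA (10.67 ± 0.46), p35S (11.57 ± 0.23), pSCR (11.91 ± 0.32), pSHR (12.30 ± 0.65) and pWOL (12.68 ± 0.22; SD, n = 2 each). The span from total RNA to pWOL was 2.01 log2 units, or 4.04-fold. The joint limma F test passed (adjusted p = 0.00998, a test that 10.5% of all probe sets passed), and the exact permutation test over the 10 hypoxia arrays gave p = 0.0201. Without total RNA hypoxia replicate 1, the lowest of the 10 arrays, the joint test's adjusted p was 0.0601.

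No step between neighbours in this order passed the adjusted threshold. The steps were 0.90 from total RNA to p35S (adjusted p = 0.143), 0.34 from p35S to pSCR (0.645), 0.39 from pSCR to pSHR (0.808) and 0.38 from pSHR to pWOL (0.948), all by limma. The arrays of total RNA and p35S did not overlap, and the interval of that first step was 0.23 to 1.58 with an unadjusted p of 0.0124, whereas the arrays overlapped in the other 3 steps. These comparisons called 2.88%, 4.42%, 0.136% and 0.00879% of all probe sets. With 2 arrays a group, a lack of overlap carries little weight by itself. It was also seen in air, where no pair passed, and its share over all probe sets was not counted. The populations were ordered by their hypoxia means, so pairs farther apart in this order differ more by construction. HRA1 was higher in pWOL than in total RNA by 2.01 ± 0.31 log2 units (adjusted p = 0.00363; 7.16% of probe sets called), and the arrays did not overlap. It was higher in pSHR than in total RNA by 1.63 ± 0.31 (adjusted p = 0.0133; 5.36% called), also without overlap. That call was lost without total RNA hypoxia replicate 1 (difference 1.31, adjusted p = 0.128) and without pSHR hypoxia replicate 2 (difference 1.17, adjusted p = 0.111). In pSCR the difference from total RNA was 1.24 (adjusted p = 0.0713; 1.02% called). Total RNA came from the p35S line, so pSCR, pSHR and pWOL polysomes differ from it in both RNA fraction and promoter line. These cannot be told apart here.

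Among the polysomal lines, HRA1 was higher in pWOL than in p35S in hypoxia, by 1.11 ± 0.31 log2 units or 2.16-fold (adjusted p = 0.0447; 8.29% called), with both pWOL arrays above both p35S arrays. This adjusted p lay close to the threshold. It was above it in 12 of the 20 fits that left out 1 array, with adjusted p up to 0.269. The difference itself ran from 0.95 to 1.27 in those fits. With the replicate number as a block the adjusted p was 0.0508. In pSHR the difference from p35S was 0.73 (interval 0.05 to 1.40, adjusted p = 0.233; 3.79% called), and pWOL minus pSCR was 0.77 (0.10 to 1.45, adjusted p = 0.439; 0.0352% called). GAPDH control probes give a reading of RNA and amplification quality, and their 3 prime signal exceeded their 5 prime signal by 3.16 to 4.08 log2 units in the 4 p35S arrays, and by 4.39 to 5.07 in pWOL, 4.35 to 4.72 in pSHR, 3.95 to 5.11 in pSCR and 4.14 to 4.79 in total RNA. In hypoxia both endodermal markers, GSO1 (1.15) and JKD (2.10), and 1 of the 2 cortex markers, AT1G09750 (2.29), were also higher in pWOL than in p35S, while AT1G62500 did not pass (-0.02). The part of these markers and of the GAPDH reading in the HRA1 difference was not tested. As mean log2 levels in hypoxia, the 2 endodermal markers ran from 8.68 to 9.62 in pWOL arrays and from 7.42 to 7.63 in p35S arrays, and the 3 stele markers from 7.25 to 7.41 and from 7.74 to 7.76.

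The response itself, hypoxia minus air, was compared between all 10 pairs of populations. HRA1 passed in 0 of them by limma, while 4 had an unadjusted p below 0.05. The joint F test did not pass (adjusted p = 0.358). It called 0.0132% of probe sets, and 2691 of them had an unadjusted p below 0.05. The widest gap was that between pWOL and total RNA, 1.69 ± 0.44 log2 units with an interval of 0.73 to 2.64 (unadjusted p = 0.00206, adjusted p = 0.236). Each comparison of pSCR, pSHR or pWOL with total RNA called 0.0044% of all probe sets, and p35S with total RNA 0.0132%. The difference of pSCR and p35S responses called 0.0264%, and the remaining 4 pairs other than pWOL with p35S called 0%. The pWOL response exceeded the p35S response by 1.02 ± 0.44 (interval 0.06 to 1.97, adjusted p = 0.340), with 0.158% called. The pSHR and pSCR responses differed from that of p35S by 0.44 (interval -0.51 to 1.39) and 0.32 (-0.63 to 1.27). The pSHR and pSCR responses were closest to each other, with a difference of 0.12 (-0.83 to 1.07). As a ratio of folds, that last interval runs from 0.561 to 2.10.

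**Figure D2:**
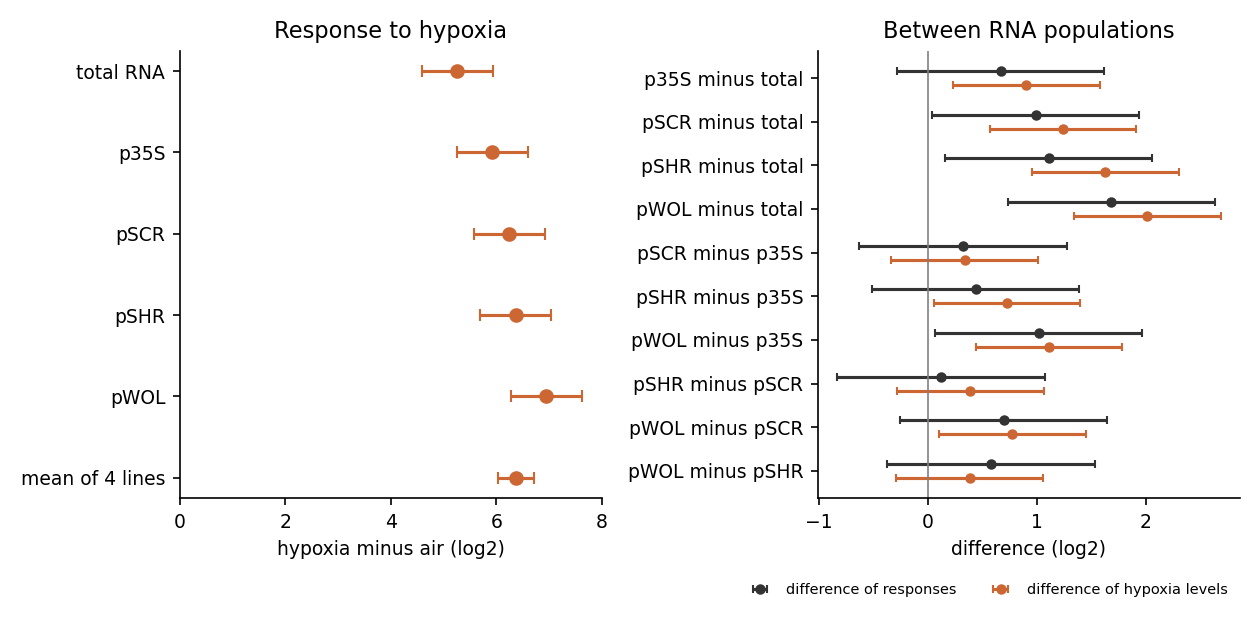
Left, hypoxia minus air of HRA1 in each RNA population and as the mean of the 4 polysomal lines (log2). Right, differences between RNA populations in that response (black) and in the hypoxia level (orange). Points are limma estimates from all 20 arrays and bars are 95% intervals. Responses run from 5.26 in total RNA to 6.94 in pWOL, and the hypoxia levels of pWOL and total RNA differ by 2.01.

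HRA1 belongs to the genes that low oxygen induces, so its values were set beside those of 26 other low-oxygen response genes that had a named probe set, of 49 listed. Some of the literature behind this list drew on the same samples, and its direction is therefore no separate support. Of the 26 genes, 22 rose in total RNA and 24 in each of the 4 polysomal lines and in their mean. Of all probe sets 2.04% rose in total RNA, 2.8% in p35S, 3.45% in pSCR, 2.68% in pSHR, 4.18% in pWOL and 9.69% in the mean. All 26 differences were positive in that mean, and the median was 3.81 (the median of all probe sets was -0.02). AT5G27760 (0.35) and AT3G48020 (0.21) did not pass in the mean of the lines. PDC2, a pyruvate decarboxylase of ethanol fermentation, rose by 3.67 ± 0.15, and AT4G17260, lactate dehydrogenase, by 2.28 ± 0.11 over the lines. CML38, which encodes a calmodulin-like protein, rose by 4.54 ± 0.25.

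The order of the estimates over the populations differed between HRA1 and most of the list. HRA1's estimated response was smallest in total RNA and largest in pWOL. Of the 26 genes, 11 had their largest estimate in p35S, 10 in pSCR, 3 in total RNA, 1 in pSHR and 1, PDC2, in pWOL. None had the order of HRA1, which ran from total RNA through p35S, pSCR and pSHR to pWOL. That order is itself not resolved, since 0 of the 10 pairs of HRA1 responses passed by limma. A largest estimate in pWOL was also seen outside the list, in AT1G72540, AT1G28760, AT1G03610 and AT1G26730. In pWOL minus p35S, 20 of the 26 genes had a negative difference of responses and 6 a positive one. Their median was -0.69, against 1.02 for HRA1 and a median of 0.0017 for all probe sets. Of these 26 differences 2 passed by limma, AT1G19530 (-2.72) and AT2G17850 (-2.81), against 0.0923% of all probe sets that were called lower. HRA1 came at place 2 of 27 in this order, behind AT1G26270 (1.12 ± 0.36, adjusted p = 0.200). In pWOL alone HRA1 came first of the 27. It came at place 6 in p35S and at place 4 in total RNA. A difference between HRA1 and the list was not tested.

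AT4G10270, a wound-responsive family gene, had the opposite order of mean hypoxia levels. Its hypoxia readings were 12.82 and 12.63 in total RNA, 11.99 and 12.41 in p35S, 11.87 and 11.96 in pSCR, 11.21 and 11.42 in pSHR, and 11.46 and 10.75 in pWOL. Its level in hypoxia was lower in pWOL than in total RNA (-1.62 ± 0.29, limma adjusted p = 0.00728) and lower in pWOL than in p35S (-1.09 ± 0.29, adjusted p = 0.0386). For HRA1 the same pairs were 2.01 and 1.11. AT5G10040, with the largest mean rise of the list (7.07 ± 0.21), read between 11.26 and 12.10 in all 10 hypoxia arrays, and its hypoxia level in pWOL differed from that in p35S by 0.02 ± 0.42, which did not pass.

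**Figure D3:**
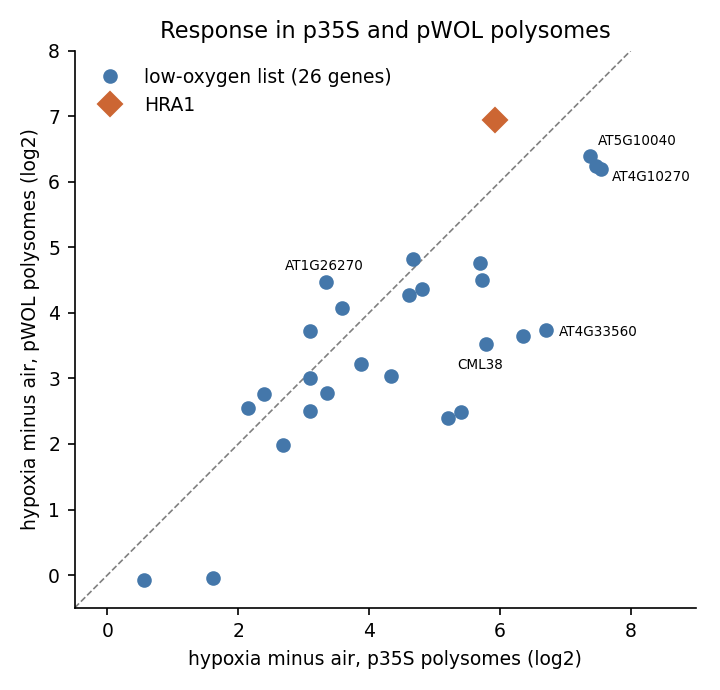
Hypoxia minus air in p35S polysomes (x axis, log2) against pWOL polysomes (y axis, log2) for HRA1 (diamond) and 26 other low-oxygen response genes (circles). The dashed line marks equal responses. Of the 26 genes 20 lie below the line, while HRA1 lies above it at 5.93 and 6.94.

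Of the genes that act on oxygen sensing itself, 2 of 24 listed had a named probe set, and the group VII factors were not analysed here. MAP1A, a methionine aminopeptidase, an enzyme that removes the first methionine of proteins, differed by 0.09 ± 0.10 over the 4 lines and did not pass. AT2G41980, a SINA-family ubiquitin ligase gene, was lower by a small margin (-0.39 ± 0.13, limma adjusted p = 0.0447), in a comparison where 10.8% of all probe sets fell. HRA1's difference in the same comparison was 6.37.

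Within the trihelix family, 18 other genes of 28 listed were measured. The differences of the 18 ran from -0.42 to 0.90 over the mean of the 4 lines, with a median of 0.24. HRA1 stood at 6.37. In that comparison 6 rose by the limma test and the other 12 did not pass, a share to be read against the 9.69% of all probe sets that rose. Within single populations, 1 of 18 rose in total RNA, 2 in pSCR and 1 in pWOL, where 2.04%, 3.45% and 4.18% of all probe sets rose. Under the alternative settings these counts ran from 0 to 1, 0 to 3 and 0 to 2. AT2G38250, a GT-3-type factor, rose by 0.90 ± 0.25 over the lines, and AT3G24490 by 0.89 ± 0.22. AT1G76880, a GT-2-like factor, rose by 0.75 ± 0.19 over the lines and by 1.46 ± 0.38 in pSCR alone. GT-1, the founding member of the family, which binds light-responsive promoters, rose by 0.52 ± 0.15. AT1G21200 (0.42 ± 0.11) and AT4G31270 (0.31 ± 0.09) completed the 6. GT2, a paralogue of AT1G76880, differed by 0.21 ± 0.22 and PTL, which shapes petals and sepals, by 0.02 ± 0.08. The count of 6 moved between 3 and 9 under the alternative settings.

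HRA1's chromosomal neighbours responded unevenly. Of the 5 annotated genes on each side, 4 had a named probe set. AT3G10020, which lies directly beyond AT3G10030 on one side, is itself on the low-oxygen list. In air it read 6.47 to 8.10 in the 10 arrays, and in hypoxia 8.81 to 11.20. It rose by 2.92 ± 0.29 log2 units over the 4 lines (limma adjusted p = 8.84e-06). In total RNA its difference was 1.46 ± 0.58, which did not pass (adjusted p = 0.281).

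AT3G10030, separated from HRA1 by a transfer RNA gene and itself a trihelix gene, rose by 0.88 ± 0.21 in total RNA and 0.86 ± 0.21 in pSCR, and differed by -0.48 in p35S, which did not pass. Its call in total RNA was lost under quantile normalization, without the dimmest probe sets, with trended moderation and without any 1 of the total RNA, p35S or pWOL arrays, and the number of neighbours called in pSCR moved between 0 and 2. Over the 4 lines it differed by 0.30 ± 0.11 (adjusted p = 0.0671). On the other side AT3G10060 did not pass in any population, with differences from -0.38 to 0.19. AT3G10080 fell in pSHR (-1.90 ± 0.25, adjusted p = 5.42e-04; 1.88% of all probe sets fell there) and over the lines (-0.77 ± 0.12, adjusted p = 5.86e-04).

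**Figure D4:**
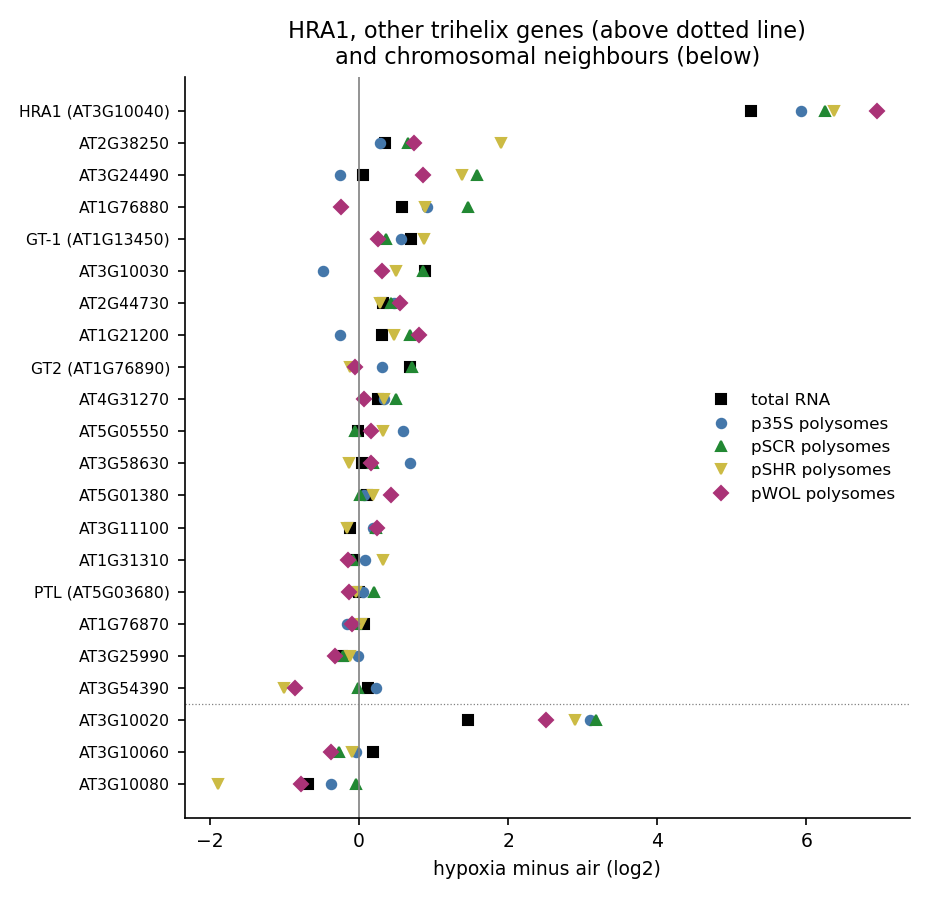
Hypoxia minus air (x axis, log2) in the 5 RNA populations (symbols) for HRA1, 18 other trihelix genes (above the dotted line) and 3 further neighbours of HRA1 on the chromosome (below it). The trihelix gene AT3G10030 is also a neighbour. HRA1 runs from 5.26 to 6.94, whereas no other trihelix gene exceeds 1.90.

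The genes whose profile was most like that of HRA1 were found by Pearson's r over the 20 arrays, which share treatment and RNA population, so that r mostly reflects the step from air to hypoxia. Over 13512 other single-gene probe sets r ran from -0.95 to 0.99 with a median of -0.05, and 77 exceeded 0.9. The 10 closest were AT5G44730 (r = 0.989), AT3G27220 (0.988), AT1G72540 (0.985), AT4G24110 (0.983), AT1G28760 (0.980), AT1G03610 (0.977), AT5G10040 (0.977), WRKY22 (0.974), AT1G26270 (0.974) and AT1G26730 (0.973). Of these, 5 are on the low-oxygen list. All 10 rose in each of the 5 populations by limma, with mean differences over the lines from 2.96 to 7.07. Per population, 2.04% (total RNA) to 4.18% (pWOL) of all probe sets rose. The 10 were picked by an r that follows the step from air to hypoxia, so their rise is no separate result. The other 5 of these genes are not on the low-oxygen list. Among them WRKY22, a transcription factor of defence and submergence responses, rose by 4.54 ± 0.16, with its largest estimate in p35S (5.05) and 4.46 in pWOL. AT1G72540, AT1G28760, AT1G03610 and AT1G26730 rose by 3.47 ± 0.16, 3.08 ± 0.20, 3.61 ± 0.16 and 2.96 ± 0.16 over the lines, and each estimate was largest in pWOL, at 4.01, 3.89, 4.08 and 3.77.

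By the size of the 5 responses, the nearest genes were AT4G24110 (root mean square difference from HRA1 of 0.87 log2 units), AT3G27220 (1.25), AT1G33055 (1.31), AT4G10270 (1.37) and AT5G10040 (1.39), all on the low-oxygen list. Only AT1G33055 among these 5 had a larger estimate in pWOL than in p35S, 4.82 against 4.67. The profiles most opposed to HRA1 over the 20 arrays were those of AT3G50300 (r = -0.947), AT3G45680 (-0.922), tny (AT5G25810, TINY, an AP2/ERF-type factor; -0.913), AT5G15910 (-0.913) and AT3G16560 (-0.913). Their mean differences over the lines ran from -3.08 to -1.25.

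**Figure D5:**
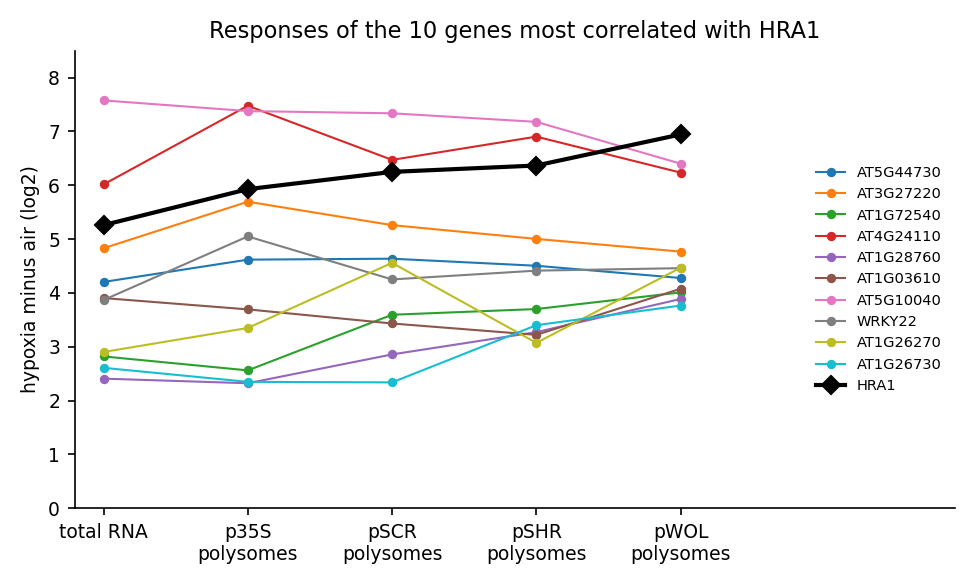
Hypoxia minus air (y axis, log2) in the 5 RNA populations (x axis) for HRA1 (black) and the 10 genes with the highest Pearson r to it over the 20 arrays. HRA1 rises from 5.26 in total RNA to 6.94 in pWOL, while AT5G10040 runs from 7.58 to 6.40. Lines join the populations only to mark each gene.

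Within the 10 hypoxia arrays alone, where the step from air is removed, other genes had the highest r. Over the 13512 other single-gene probe sets r then ran from -0.97 to 0.97 with a median of -0.02, and 25 exceeded 0.9. The most negative values were thus about as far from 0 as the most positive. The highest r belonged to AT3G13340 (0.968), AT2G47960 (0.957), AT2G01680 (0.948), FTSZ2-1 (0.946), a plastid division gene, and AT5G35200 (0.944). None of these 5 is on the low-oxygen list, and none was called for hypoxia in all 5 populations. Of the 26 low-oxygen genes, 18 had an r below 0 with HRA1 over these arrays, although 20 had an r above 0.9 over all 20 arrays. The median of the 26 in the hypoxia arrays was -0.33. That of all 13512 genes was also below 0, at -0.02, and a difference between them was not tested. AT4G10270 had r = -0.846 in the hypoxia arrays and 0.956 over all arrays, and AT2G15880 had 0.877 and 0.800. The arrays of a group share their RNA source, so these values are descriptions over 10 arrays from 5 populations.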

How the data were processed

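The authors deposited log2 expression values per probe set, made with RMA and the Bioconductor package affy per the submitters' processing notes. No source used here gives their versions or the chip definition. Per the labels' protocols, each target came from 400 pg of RNA amplified in 2 rounds, which shortens products towards the 3 prime end and can scale transcripts unevenly. Replicates were not pooled, and no further scaling was applied.

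Of 22810 probe sets, 64 controls were left out. The supplied platform annotation gave 13513 of the others 1 gene, 503 several and 8730 none listed. The TAIR10.1 gene table, used for names and neighbours, held 13436 of the genes' probe sets. Coordinates are left out because the values come with no named build.

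All 20 arrays entered 1 limma fit with a mean for each of the 10 groups (limma 3.58.1, R 4.3.3; 10 residual and 3.30 prior degrees of freedom). Within each of 36 comparisons p-values were adjusted by Benjamini-Hochberg over all 22746 probe sets and called below 0.05: hypoxia against air in 5 populations and the mean of 4 lines, and 10 pairs of populations for the response, the air level and the hypoxia level. Joint F tests had 4 numerator degrees of freedom. Intervals are 95%. The fit was tested on simulated data. Alternatives were a replicate block, median centring, quantile normalization, no dimmest 25%, compared arrays alone, trended robust moderation, correlation within the shared lysate, and leaving out each array. The joint and exact permutation tests were added after the values were seen.

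The gene, the lists and the tests were chosen with earlier results of these data known. Named genes are HRA1, list members, the 5 annotated genes on each side, and by Pearson r the 10 most like and 5 most opposed over 20 arrays, the 5 most like over 10 hypoxia arrays, and the 5 with the nearest responses. AT4G10270, AT1G26270 and the other members shown in detail were picked from the lists by their values.

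Same-numbered arrays deviated together only in part. The correlation of deviations between air and hypoxia of a population ran from -0.16 to 0.29. It was over 0.1 in 2 of 5, total RNA (0.25) and pSHR (0.29). For total and p35S RNA, which share lysates, it was -0.33 and 0.03. The numbers were not taken as pairs.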

Additional observations from a re-analysis of the deposited data

How the results depend on the processing

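HRA1's rise in hypoxia kept its direction and its call in the 5 populations and the mean of the 4 lines, under 6 other settings and 20 fits that each left out 1 array. The highest adjusted p was 0.0437, for pSHR from the 4 compared arrays alone. Differences between populations were less stable. The higher hypoxia level in pWOL than in p35S was 1.11 with the replicate block (adjusted p = 0.0508) and 1.11 from the compared arrays alone (0.0656), and 0.95 to 1.27 leaving out single arrays. The higher level in pSHR than in total RNA was 1.63 from the compared arrays alone (0.162) and 1.17 to 2.09 leaving out single arrays. For pSCR against total RNA it was 0.92 to 1.56, and the call appeared (adjusted p = 0.0408) without pSHR hypoxia replicate 1 or 2. The replicate block changed no other HRA1 call.

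Several differences that had not passed changed sign when single arrays were left out. In hypoxia these were pSHR minus pSCR (-0.0692 to 0.85) and pWOL minus pSHR (-0.0750 to 0.84). In air they were pSCR minus p35S (-0.21 to 0.25), pWOL minus p35S (-0.11 to 0.30), pWOL minus pSCR (-0.15 to 0.31, and -0.0239 with arrays centred on their medians) and pWOL minus pSHR (-0.40 to 0.0085). For the response they were pSHR minus p35S (-0.0196 to 0.90) and pSHR minus pSCR (-0.34 to 0.58). The cause was not tested. Of the 10 genes most like HRA1, 8 were shared without the total RNA arrays and 2 with Spearman's rho. The number of low-oxygen genes that rose stayed between 22 and 25, and that of trihelix genes over the lines moved between 3 and 9. In single populations the trihelix counts ran from 0 to 3 and those of the 4 neighbours from 0 to 2. Each gene listed had 1 probe set, so the setting with all probe sets is the same. With 2 arrays a group, their number limits the precision.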
